A study of Mus musculus with 4 samples.

Results

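Transcripts of 9 genes of the complement system were followed in RNA sequencing of cells sorted from the injured mouse retina. The genes were chosen by name as complement components and regulators, and all 9 were found among 56493 genes of the deposited count table. They were C1qa, C1qb and C1qc, C2, C4b, C3, Cfb, Serping1 and Cd59a. The mice were wild type, and each had been injected intravitreally with an AAV2 vector and had the optic nerve crushed after a further month. Retinal ganglion cells, whose axons form that nerve, were then isolated by fluorescence-activated sorting, per the labels. The 2 CrAT libraries came from eyes with AAV2-CrAT, meant to overexpress the enzyme carnitine acetyltransferase, and the 2 MCS libraries from eyes with AAV2-MCS, which the labels do not spell out. The promoter of the vectors, the age of the mice, the number of eyes per library and the meaning of the suffix NCd8 in the titles could not be taken from the labels.

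Complement is a cascade of plasma and tissue proteins that marks cells, debris and microbes for removal. The classical pathway starts when C1q, built of the chains A, B and C, binds a target and activates the protease C1r. C1r in turn activates C1s, which cuts C4 and C2, and their fragments form an enzyme that cuts C3. The alternative pathway builds a second enzyme from C3 and factor B, and the lectin pathway enters at C4 and C2. All of them meet at C3, and the terminal components then form a pore in the membrane. In retina and brain C1q is made mainly by microglia, while C3 and C4 are among the transcripts that glia raise after injury.

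The deposited counts per library summed to between 24494253 and 27097438, and 3 counts corresponded to between 0.109 and 0.126 CPM (counts relative to the size of the library, scaled by TMM). Floors and counting intervals cover counting error only, since amplified reads are not independent molecules. The labels leave out the species of the vector insert, so the mouse Crat gene is a limited check of the labels. It reached 72.5 and 49.9 CPM with CrAT against 38.3 and 47.7 CPM with MCS, replicate 1 first. Its log2 fold change was 0.51 (SE 0.33) and did not pass (edgeR quasi-likelihood test, adjusted p = 1). The sort did not yield ganglion cells alone, since 15 rod markers summed to between 31170 and 57040 CPM and 20 ganglion cell markers to between 301.6 and 607.5 CPM. Of the ganglion cell markers Pou4f1, Pou4f2 and Pou4f3 had no count in at least 1 library. For Mueller glia the sum of 20 markers was 19310 CPM in CrAT replicate 1, 16780 CPM in CrAT replicate 2, 27190 CPM in MCS replicate 1 and 24780 CPM in MCS replicate 2. MCS replicate 1 stood apart in nuclear retained RNA, with 7 such long noncoding RNAs at 1362 CPM in sum against 366.6 to 439.8 CPM in the others. In bulk libraries such as these, fewer cells of a type and less RNA per cell cannot be told apart. Nothing in the labels ties the replicates to separate mice, so the tests measure only how far these libraries spread, and that spread may be technical.

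Between the CrAT and MCS libraries, none of the 9 complement genes differed beyond the spread of the replicates. C3, the hub of the cascade, averaged 51.2 ± 31.9 CPM under CrAT (SD, n = 2) against 16.5 ± 12.5 CPM under MCS (SD, n = 2), and C2, a protease of the classical pathway, averaged 2.66 ± 2.10 and 0.795 ± 0.157 CPM. The C1-inhibitor gene Serping1 averaged 456.4 ± 84.5 CPM under CrAT against 318.1 ± 68.3 CPM under MCS. C4b averaged 255.2 ± 7.69 CPM under CrAT against 299.2 ± 183.5 CPM under MCS, and its groups overlapped.

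All 9 genes passed the filter on low counts. By edgeR's quasi-likelihood test 0 of them passed an adjusted p of 0.05, as did 0% of the 19638 genes tested, and 0 had an unadjusted p under 0.05, against 4.15% of all genes tested. DESeq2 also called 0 of the 9, with 1 at an unadjusted p under 0.05 (C3), and it called 0.28% of all genes. In 4 genes the CrAT libraries were both above the MCS pair (C1qc, C2, C3 and Serping1), as were 15% of all genes, and in 1 (C1qa) both were below, as were 16.6% of all genes. With 1 library left out a group of 1 is compared with a pair and fewer genes overlap. Without MCS replicate 1 the first count was 7, as against 35.7% of all genes, and without MCS replicate 2 the second was 3, as against 35.5% of all genes. The log2 fold change was above 0 in 7 of the 9 and in 50.6% of all genes, and the median was 0.35 over the 9 and 0.0075 over all genes. Without MCS replicate 1 the median of the 9 was 0.76. A two-sided exact permutation test on 2 against 2 libraries cannot give a p below 0.333, so none was run.

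Per length of transcript the genes covered a wide range of levels. In FPKM (counts relative to exon length and library size), Serping1 was the highest, from 118.3 to 220.4 over the 4 libraries. C4b followed with 30.3 to 76.5 and Cd59a with 23.8 to 45.0 FPKM, and these ranges overlapped. C3 lay between 1.52 and 14.2 FPKM, overlapping Cfb at 1.19 to 3.50 FPKM. Cfb in turn overlapped C1qb, at 1.09 to 2.09 FPKM. The 3 lowest, C1qa, C1qc and C2, had mean levels of 0.594, 0.570 and 0.441 FPKM and did not differ beyond their spread. Thus an inhibitor of the cascade's first protease and a membrane inhibitor of its last step were, with C4b, the most abundant of these transcripts in all 4 libraries.

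**Figure D1:**
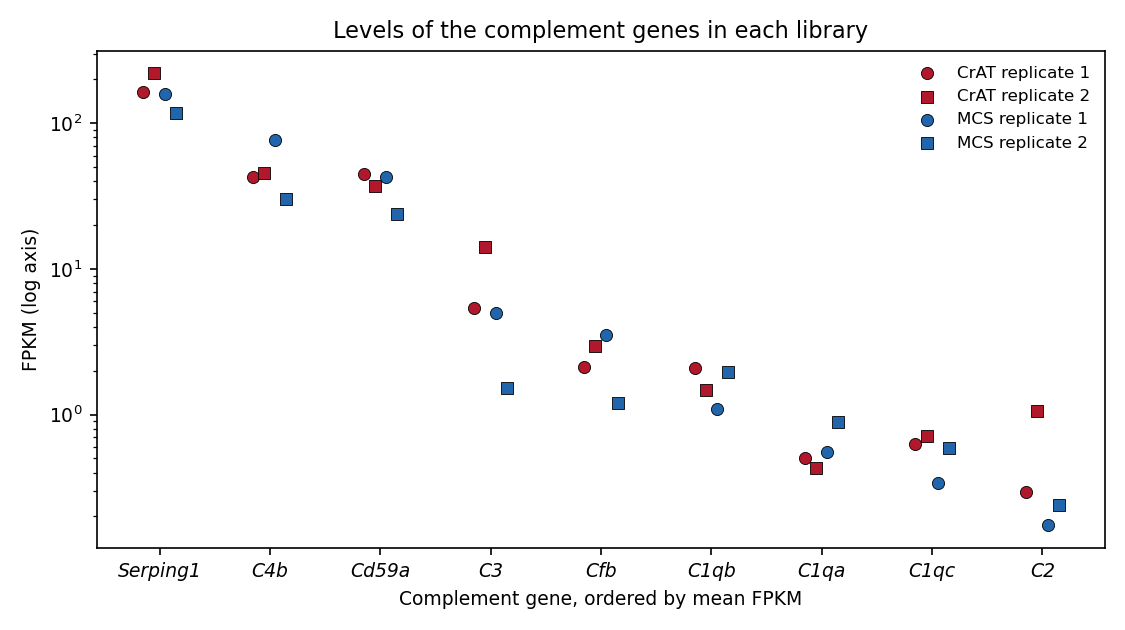
FPKM (log axis) of the 9 complement genes in each of the 4 libraries, CrAT in red and MCS in blue, circles for replicate 1 and squares for replicate 2. Serping1 sits at 118.3 to 220.4 FPKM and C2 at or below 1.06 FPKM, and MCS replicate 2 is the lowest point for the 5 most abundant genes.

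A pattern shared by 5 genes followed a single library. MCS replicate 2 was the lowest of the 4 in them (C4b, C3, Cfb, Serping1 and Cd59a), where 28.3% of all genes tested were lowest in that library. These 5 were also the most abundant per length. The gap between the MCS replicates in them was 2.53-fold for C4b, 3.28-fold for C3, 2.95-fold for Cfb, 1.36-fold for Serping1 and 1.81-fold for Cd59a. CrAT replicate 2 was the highest library in 4 genes (C1qc, C2, C3 and Serping1), where 21.9% of all genes were highest in it.

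C1q, the recognition molecule of the classical pathway, was barely present. Its genes lie side by side on the minus strand of chromosome 4, C1qb at 136607440 to 136613498, C1qc at 136617115 to 136620376 and C1qa at 136623228 to 136626114 (coordinates as in the count table, which names no build and does not match GRCm38). The upstream windows of C1qb and C1qc are shown as those of the neighbouring chains. Each runs from 250 bases before to 50 after the RefSeq start on GRCm38.p6, minus strand, C1qb at chr4:136886151-136886450 and C1qc at chr4:136892865-136893164. Capitals mark GAGGAA, the core bound by PU.1, a transcription factor of myeloid cells, and TTNCNNAA, a C/EBP-like motif, each on either strand.
C1qb: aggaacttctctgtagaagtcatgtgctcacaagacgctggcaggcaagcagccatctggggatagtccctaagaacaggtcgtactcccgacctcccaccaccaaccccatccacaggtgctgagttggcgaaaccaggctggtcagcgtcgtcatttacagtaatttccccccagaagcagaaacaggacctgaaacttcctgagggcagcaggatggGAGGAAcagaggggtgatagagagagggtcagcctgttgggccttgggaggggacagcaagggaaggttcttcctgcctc
C1qc: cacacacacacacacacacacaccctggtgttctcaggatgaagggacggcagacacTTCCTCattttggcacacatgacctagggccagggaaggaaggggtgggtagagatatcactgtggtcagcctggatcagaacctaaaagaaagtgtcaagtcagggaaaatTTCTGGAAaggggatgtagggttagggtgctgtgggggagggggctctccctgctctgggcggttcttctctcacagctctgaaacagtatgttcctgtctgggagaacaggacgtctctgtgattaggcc
GAGGAA occurs in 28.3% of 32851 such windows and TTNCNNAA in 40.7%. Each window has 1 GAGGAA, and C1qc has 1 TTNCNNAA. GAGGAA is not particular to C1q here, since the window of Cd59a, not shown, also has 1, while that of C3 has 0.

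C1qa had 13 and 12 counts in the CrAT replicates, in order, against 14 and 25 in the MCS replicates. C1qb had 56 and 43 against 29 and 58, and C1qc 30 and 37 against 16 and 31. The chains added up to 99 and 92 counts in CrAT and 59 and 114 in MCS. Scaled to library size these were 4.15 and 3.47 against 2.37 and 4.13 CPM, and the groups overlapped. The CrAT pair was below the MCS pair in C1qa, at a log2 fold change of -0.56 (SE 0.76), but the exact 95% Poisson intervals of the lowest and the highest library, 0.234 to 0.791 and 0.586 to 1.34 CPM, overlapped. In C1qc both CrAT libraries were above, with a log2 fold change of 0.58 (SE 0.65), and here too the intervals of lowest and highest library overlapped, at 0.368 to 1.04 and 0.983 to 1.92 CPM. C1qb had 0.28 (SE 0.59) and overlapping groups. The adjusted p was 1 for each chain (edgeR). C1qb FPKM per C1qa FPKM was 4.12 and 3.43 in CrAT and 1.98 and 2.22 in MCS, each from 12 to 58 counts, and the difference was not tested.

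Since microglia are the main source of C1q, their other markers are given beside it. The 20 microglia and macrophage markers gave sums of 20.15 and 22.8 CPM for CrAT against 20.6 and 25.5 CPM for MCS, with overlapping groups, beside 2.37 to 4.15 CPM for C1q. Cx3cr1, with 7 to 16 counts, Tmem119, with 7 to 10, and Aif1, with 2 to 4, were near the floor of 3 counts, and Sall1 was at 0 in 2 libraries. P2ry12, another gene typical of microglia, was at 18 and 8 counts in CrAT and 62 and 20 in MCS. Mpeg1 was at 3 and 97 counts in CrAT and 13 and 16 in MCS, so 1 library set it apart. The markers with the most counts were Csf1r, a growth factor receptor, at 104 to 261, Cd68, a lysosomal protein, at 80 to 159, and Olfml3 at 49 to 108. The median log2 fold change of the 11 markers tested was -0.014, with 5 above 0 and 6 below. Monocyte and lymphocyte markers summed to at most 3.23 CPM, and 5 of 15 (Cd3e, Nkg7, Gzma, Gzmb and Ms4a4b) had no count in any library. Among the rest, Cd8a had 41 and 31 counts in CrAT and 35 and 9 in MCS, and Lyz2 5 and 14 against 21 and 26.

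C4b, which encodes complement C4, was the most abundant of the classical pathway. It lies on chromosome 17 at 34947354 to 34962856, minus strand. The gene had 5962 and 6910 counts in CrAT and 10667 and 4678 in MCS, or 249.7 and 260.6 against 429 and 169.4 CPM. The CrAT replicates were within 1.04-fold of each other and lay between the MCS replicates. Its log2 fold change was -0.23 (SE 0.46, edgeR adjusted p = 1), and it was 0.59 without MCS replicate 1 and -0.75 without MCS replicate 2. MCS replicate 1, the library highest in C4b, was also the one rich in nuclear retained RNA. It was highest too in the sums of the markers listed for Mueller glia (27190 CPM), astrocytes (792.6 CPM) and endothelium (863.9 CPM). MCS replicate 2, the lowest in C4b, had 24780, 561.2 and 485.7 CPM in these lists, above both CrAT libraries. In MCS replicate 1 the endothelial sum was mostly Kdr (593.5 CPM) and Flt1 (243.7 CPM). Cdh5 of that list had no count in any library, and Pecam1 was lowest in MCS replicate 1. The astrocyte sum there was mostly Slc1a2 (333.8 CPM) and Gfap (252.4 CPM), while Pax2 had at most 1 count in any library. S100b and Gja1 of that list were highest in MCS replicate 2. The part of nuclear retained RNA or of any of these lists in the C4b level was not tested.

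C4b has a close copy, C4a, at 35028069 to 35042440 of the same chromosome. In the longest GENCODE M21 transcripts the coding part of C4b and its C4a counterpart were 96.1% identical over 5204 aligned bases, with an identical run of 433 bases. Of all windows of 50 bases in C4b, 35.2% occur in C4a. The copies are shown where they differ most, at bases 2761 to 2820 of the C4b transcript, with the 13 differing bases in capitals, since reads can be assigned to 1 copy only at such places.
C4b: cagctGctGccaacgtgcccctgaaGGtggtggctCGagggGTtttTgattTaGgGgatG
C4a: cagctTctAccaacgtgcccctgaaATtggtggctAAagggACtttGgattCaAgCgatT
C4a had 245 and 313 counts in CrAT and 460 and 154 in MCS, and its order over the libraries was that of C4b. There were 24.3 and 22.1 C4b counts per C4a count in CrAT and 23.2 and 30.4 in MCS. With the counts of both summed, the log2 fold change was -0.23 (SE 0.47). How reads common to both were divided is not given in the sources used here, so the level of C4a in particular is uncertain.

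C2 and factor B are sister proteases, C2 of the classical and lectin pathways and factor B of the alternative pathway, and their genes stand 85 bases apart on the minus strand of chromosome 17. C2 (35081580 to 35117241) is transcribed first and Cfb (35075350 to 35081494) follows. C2 had 28 and 110 counts in CrAT and 17 and 25 in MCS. CrAT replicate 2 was the only library apart from the rest: the lower limit of its exact 95% Poisson interval was 3.41 CPM, and the upper limit of CrAT replicate 1 was 1.70 CPM. The log2 fold change was 1.74 (SE 0.76, edgeR adjusted p = 1), and 2.52% of all genes tested had a larger one in either direction. Without CrAT replicate 2 it was 0.58. Cfb had 149 and 222 counts in CrAT and 242 and 91 in MCS, with overlapping groups and a log2 fold change of 0.17 (SE 0.60, edgeR adjusted p = 1). It turned to -0.41 without MCS replicate 2 and to -0.040 without CrAT replicate 2, and was 1.15 without MCS replicate 1.

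The table also lists Gm20547, a protein-coding gene model that spans both, from 35075388 to 35101018 on the same strand. Of its windows of 50 bases 39.1% occur in the C2 transcript, 57.2% in the Cfb transcript and 96.3% in either (longest GENCODE M21 transcript of each). The join is shown because reads across it fit neither gene alone, with the last 30 bases that match C2 in lower case and the next 30, which occur in Cfb and not in C2, in capitals.
Gm20547: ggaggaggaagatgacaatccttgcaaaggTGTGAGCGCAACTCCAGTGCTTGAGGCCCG
Gm20547 had 155 and 301 counts in CrAT and 244 and 98 in MCS, close to Cfb in all libraries but CrAT replicate 2, the library in which C2 was high. In each library Gm20547 held more counts than C2. With the Gm20547 counts added to C2, the log2 fold change of C2 fell from 1.74 to 0.63 (SE 0.59, edgeR adjusted p = 1). With the same counts added to Cfb, that of Cfb was 0.30 (SE 0.57). How reads in this shared sequence were divided is not stated in the labels, and the M21 models may differ from the annotation behind the table. Zbtb12, a gene on the opposite strand within C2, had 4 to 10 counts. Its part in the C2 counts, 17 to 110, was not tested.

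**Figure D2:**
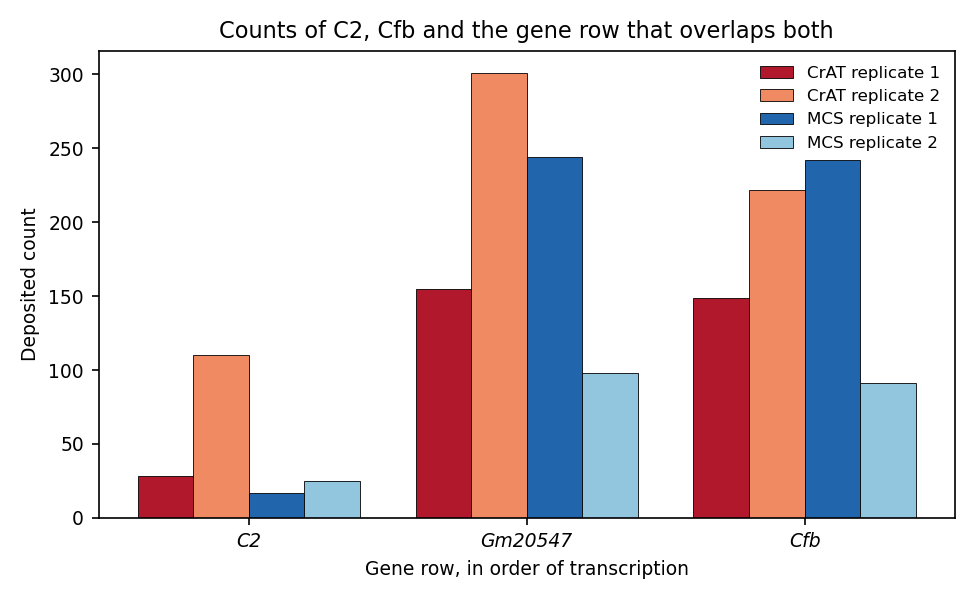
Deposited counts of C2, Gm20547 and Cfb in the 4 libraries (bars from 0, 1 bar per library). Gm20547 and Cfb have near-equal bars in 3 libraries, and in CrAT replicate 2 Gm20547 has 301 counts, Cfb 222 and C2 110.

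C3, on which all pathways meet, had the smallest p of the 9 in edgeR. The gene lies on chromosome 17 at 57510970 to 57535136, minus strand. Its upstream window, chr17:57228087-57228386 on GRCm38.p6, minus strand, is shown because C3 varied most among the abundant members. Capitals mark the C/EBP-like motif TTNCNNAA on either strand, with matches that begin at -70, -58 and -45 from the RefSeq start (counted as 0), and TATAAA, which begins downstream of that start, at 14.
C3: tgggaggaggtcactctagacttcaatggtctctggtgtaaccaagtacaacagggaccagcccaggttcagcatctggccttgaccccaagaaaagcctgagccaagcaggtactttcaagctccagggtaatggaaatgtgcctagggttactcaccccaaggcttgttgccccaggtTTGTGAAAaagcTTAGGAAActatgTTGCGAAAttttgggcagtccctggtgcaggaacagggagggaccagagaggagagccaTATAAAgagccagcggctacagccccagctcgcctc
TTNCNNAA is short and loose, but 3 or more matches occur in 3.6% of the windows, while TATAAA occurs in 13.6%. The interferon motifs GAAANNGAA (ISRE-like) and TTCNNNGAA (GAS), which occur in 8.6% and 8.3% of windows, have no match in these letters. The window of Cd59a has 1 GAAANNGAA, which begins at -187.

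C3 had 684 and 1954 counts in CrAT and 630 and 213 in MCS, or 28.65 and 73.7 against 25.3 and 7.71 CPM. The CrAT pair was above the MCS pair, but CrAT replicate 1 exceeded MCS replicate 1 only slightly, and the gap between the groups came from CrAT replicate 2 and MCS replicate 2. The log2 fold change was 1.63 (SE 0.69, edgeR adjusted p = 1), and 3.05% of all genes tested had a larger one in either direction. The replicates differed by 2.57-fold within CrAT and 3.28-fold within MCS. Without CrAT replicate 2 the log2 fold change was 0.82, without MCS replicate 2 it was 1.02, and without MCS replicate 1 it was 2.73. DESeq2 gave an adjusted p of 0.586. CrAT replicate 2 was also the library with the most amacrine transcripts, with 14 markers summing to 3775 CPM. That sum was 1350 CPM in CrAT replicate 1, 1382 CPM in MCS replicate 1 and 2590 CPM in MCS replicate 2, the library lowest in C3. CrAT replicate 2 was highest too in summed ganglion cell markers (607.5 CPM) and lowest in those of Mueller glia (16780 CPM) and rods (31170 CPM). The part of any of these cell types in the C3 level was not tested.

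The genes most like C3 over the 4 libraries were Gbp10, Gm4951 and Kcnu1. Likeness was the root mean square distance of centred log2 CPM, which was 0.253, 0.262 and 0.295 among 15075 genes compared. Gbp10, an interferon-inducible GTPase, reached 73.0 and 138.4 CPM with CrAT against 39.45 and 15.2 CPM with MCS. With only 4 libraries such likeness is a description of these samples.

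Serping1 encodes the C1 inhibitor, a serpin that inactivates C1r and C1s and so holds the classical pathway in check. It lies on chromosome 2 at 84595731 to 84605788, minus strand. Its counts were 9469 and 13684 in CrAT and 9110 and 7450 in MCS, or 396.7 and 516.1 against 366.4 and 269.8 CPM. The CrAT pair was above the MCS pair here too, but CrAT replicate 1 and MCS replicate 1 were close. The log2 fold change of 0.52 (SE 0.32) was the least variable of the 9 by its error and did not pass (edgeR adjusted p = 1), with values of 0.32 to 0.76 when each library was left out in turn. The order of the libraries, with CrAT replicate 2 highest and MCS replicate 2 lowest, was that of C3, while the range was much smaller.

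Cd59a encodes an anchored membrane protein that blocks the last step, the assembly of the terminal pore. It lies on chromosome 2 at 103926146 to 103945699, plus strand, next to its copy Cd59b. Its counts were 2007 and 1796 in CrAT and 1902 and 1168 in MCS, or 84.1 and 67.7 against 76.5 and 42.3 CPM, and the groups overlapped. Its log2 fold change was 0.35 (SE 0.37, edgeR adjusted p = 1). It rested on MCS replicate 2, without which it was -0.0068. Cd59b was at 97 and 131 counts in CrAT and 100 and 86 in MCS. The coding parts of this pair were 85.3% identical over 361 aligned bases, and 4% of the 50-base windows of Cd59a occur in Cd59b, a much smaller overlap than that of the C4 genes. The sum of both had a log2 fold change of 0.35 (SE 0.36).

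**Figure D3:**
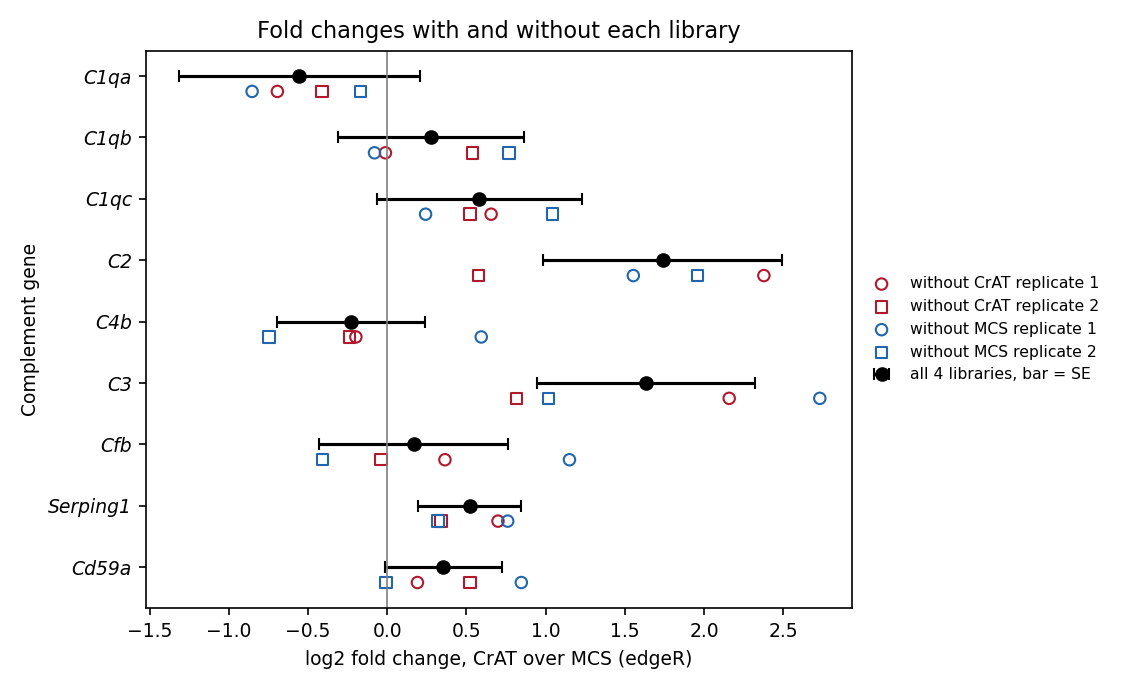
Log2 fold change of the 9 complement genes, CrAT over MCS, from edgeR with all 4 libraries (black, bar = SE) and with each library left out (open symbols). C1qb, C4b, Cfb and Cd59a change sign when a library is left out, and C3 moves between 0.82 and 2.73.

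The rest of the pathway was followed in 50 further complement genes. Of these 18 had enough counts to be tested, 14 had no count in any library and 18 had few. By edgeR 0 of the 18 passed in either direction, with 0 at an unadjusted p under 0.05, and DESeq2 had 0 passing and 1 at an unadjusted p under 0.05. Positive log2 fold changes numbered 9 and negative ones 9, with a median of 0.074. The CrAT pair lay above the MCS pair in 2 and below it in 4 of the 18, near the 15% and 16.6% of all genes tested.

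Among the genes that start the cascade, the C1 protease genes that were tested had positive log2 fold changes. C1s2, with 3 and 7 counts in CrAT and 18 and 2 in MCS, had too few counts to be tested. C1s1, the C1s protease, had 164 and 248 counts in CrAT and 117 and 35 in MCS, with groups that did not overlap and a log2 fold change of 1.44 (SE 0.68, edgeR adjusted p = 1). C1ra and C1rb, which encode C1r, had values of 0.57 (SE 0.44) and 0.65 (SE 0.53), respectively, with overlapping groups. C1ra had 692 and 1453 counts in CrAT and 870 and 588 in MCS, so CrAT replicate 2 was again the highest library and MCS replicate 2 the lowest. Mouse C1r and C1s genes have close copies, and their values are uncertain one by one. The lectin pathway protease Masp2 and the collectin Colec12 were at -0.64 (SE 0.50) and -0.97 (SE 0.60) on the same scale, both with the CrAT libraries below. The soluble lectins Mbl1, Mbl2, Fcna, Fcnb and Colec10 had no count.

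The further alternative and terminal components were scarce. Properdin (Cfp), which stabilises the alternative C3 enzyme, had 43 and 61 counts in CrAT and 69 and 99 in MCS, a log2 fold change of -0.63 (SE 0.49), and Cfd, the protease that activates factor B, had no count. Of 7 terminal genes only C8g, a lipocalin chain of C8, was tested, at 122 and 68 against 57 and 71 counts. C6, C7 and C9 had no count in any library.

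Clusterin and vitronectin, fluid-phase inhibitors of the terminal complex, had mean levels over the 4 libraries of 2352 and 439.4 FPKM, above the 166 FPKM of Serping1. Clu reached 7279 and 6271 CPM with CrAT against 9781 and 8944 CPM with MCS, with a log2 fold change of -0.47 (SE 0.33, edgeR adjusted p = 1). Clu is also a Mueller glia marker, and the summed markers of that cell type, which include it, were lower in CrAT in the same libraries. Their part was not tested. Vtn reached 1223 and 695.5 CPM with CrAT against 887.3 and 776.1 CPM with MCS.

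On the membrane side, Susd4, a complement inhibitor of neurons, reached 99.2 and 154.2 CPM with CrAT against 71.0 and 132.9 CPM with MCS. Replicate 2 was the higher library in both groups. The same held for the summed ganglion cell markers and for the summed amacrine markers, so the pattern was not particular to ganglion cells. The part of either cell type in the Susd4 level was not tested. The rodent C3 regulator Cr1l (Crry) was at 16.1 and 10.9 against 15.8 and 13.5 CPM, while Cd46 had 30 to 75 counts. Csmd1, Csmd2 and Csmd3 had log2 fold changes of 0.24, -0.85 and 0.44, with overlapping groups. Of the receptors only C1qbp, a mitochondrial protein named as a C1q binder, was tested, at 64.4 to 104 CPM with a log2 fold change of -0.058 (SE 0.34). C3ar1, the receptor of the C3a fragment, had 2 to 6 counts, and Itgam, a chain of the C3 receptor of microglia, 0 to 7.

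**Figure D4:**
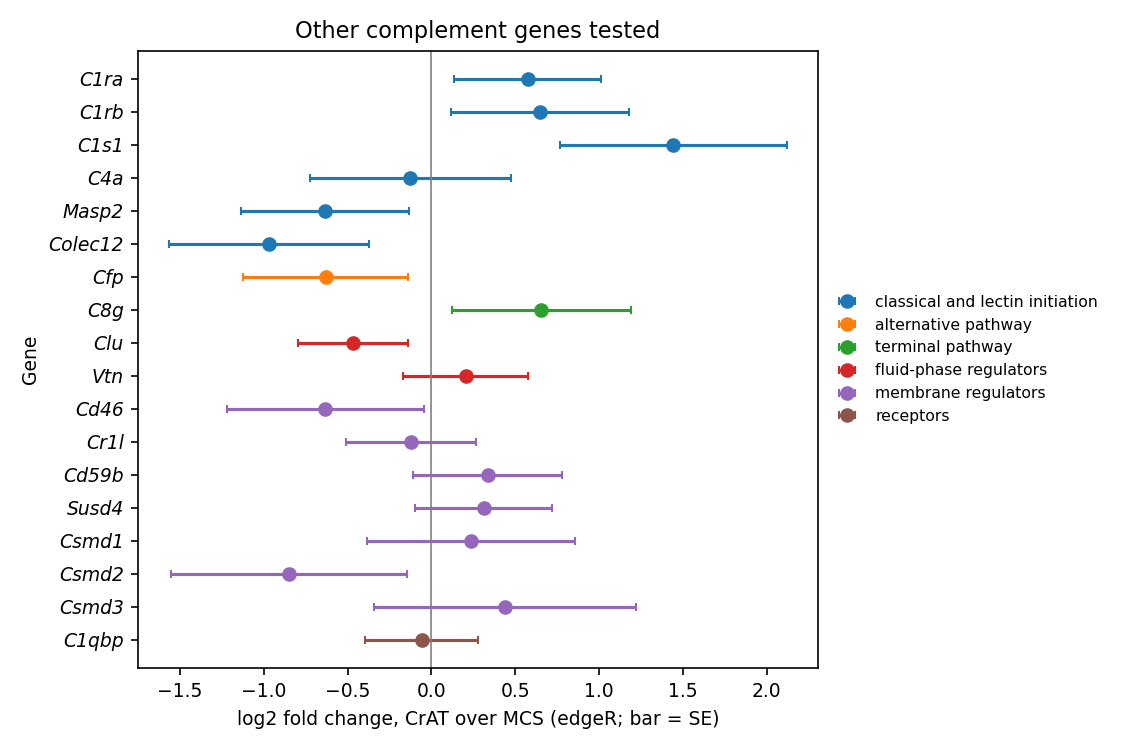
Log2 fold change, CrAT over MCS, of the 18 other complement genes tested (points, bar = SE, colours by role). Values run from -0.97 for Colec12 to 1.44 for C1s1, and none passed in edgeR.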

How the data were processed

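Group and replicate number of the 4 libraries were taken from the titles. Per the labels' protocols, libraries were made by SMART-seq v4, which does not mark the strand. Alignment was with STAR 2.7.2b, and GRCm38.p6 and mm10 are the builds named, per the submitters' processing notes. Counter settings and annotation release: not given in the sources used here. Estimated counts, rounded to whole numbers by the authors, and FPKM values were deposited. Counts recovered from FPKM were fractional by more than 0.02 in 41.8% to 43.2% of values above 0. The 4 other per-sample columns were not used. Replicates differed beyond sampling noise (chi-square per degree of freedom 77.5 in CrAT and 131 in MCS).

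Genes passing filterByExpr were scaled by TMM and compared with edgeR 4.0.16 (quasi-likelihood, robust, no covariates, 2 residual df, two-sided) in R 4.3.3, with Benjamini-Hochberg adjustment over 19638 genes at 0.05. DESeq2 1.42.0, other scalings, no filter, a replicate block, left-out libraries and summed copies were alternatives. Sums with Gm20547 and recounts of non-overlapping genes were chosen after seeing the data. The procedure was tested on simulated counts, with 50 genes changed at each fold, picked at random over all levels. Spread in them followed only the trend with level, and likeness of same-numbered libraries was left out. The rates are thus not those of any 1 gene. There edgeR recovered 6% of 2-fold, 54% of 4-fold and 82% of 16-fold changes, and called 8 unchanged genes. A gene that did not pass may therefore still differ by such folds.

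The 9 genes and all lists were chosen with earlier results of these data known, and 3 listed genes are not reported here. Named were the 9, other complement genes of at least 1 CPM in every library of a group, 3 genes nearest in profile to the member with the smallest p, and genes at or near 0 or overlapping a member. RefSeq windows (GRCm38.p6) held 4 of the 9 genes. GENCODE M21 transcripts were aligned with Biopython 1.88.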

Additional observations from a re-analysis of the deposited data

How the results depend on the processing

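Leaving out each library in turn moved the median log2 fold change of the 9 genes between 0.32 and 0.76, that of C1qb between -0.080 and 0.77, of C4b between -0.75 and 0.59, of Cd59a between -0.0068 and 0.85 and of Cfb between -0.41 and 1.15. The genes with all CrAT libraries above numbered 4 to 7 of 9 (29.4% to 36.3% of all genes in these runs), and those with all below 1 to 3 of 9 (29.4% to 36.7% of all genes). Of 85 alternative values of single members 79 kept their direction, and the 6 that did not were all from left-out libraries. No member passed the threshold in any alternative run. Over all genes DESeq2 called 55 and edgeR without a filter on low counts called 2, against 0. The cause was not tested. With the replicate number as a block edgeR called 0 genes (1922 at an unadjusted p under 0.05), with C3 at a log2 fold change of 1.70 (adjusted p = 0.474) and C2 at 1.52 (adjusted p = 0.487). The labels do not say that a number marks a shared animal or day, so the pairing is by number only. The deviations of same-numbered libraries from their group means correlated at 0.389 over genes. C1q and C2 rest on 12 to 110 counts a library, and C2 shares sequence with Gm20547, whose addition took its log2 fold change to 0.63.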

Other observations

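C4b, Cfb and C2 lie in the class III region of the mouse major histocompatibility complex. From 34947354 to 35117241 of chromosome 17, which these 3 genes bound, 7 other genes were tested, among them C4a and Gm20547. Their log2 fold changes ran from -0.40 to 0.42 with a median of -0.052, with 3 above 0 and 4 below. Dxo, an RNA decapping enzyme, was the lowest, and Gm20547 the highest. The unrounded counts behind the table were whole for C1qa, C1qb and C1qc in every library. Those of every other member were fractional in at least 1 library. Examples in CrAT replicate 1 were 5962.42 for C4b, 2006.75 for Cd59a and 9469.33 for Serping1.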
